A study of Mus musculus with 11 samples.

Results

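Leukocytes leave the blood by holding on to adhesion molecules on the endothelial surface, and 8 genes for such molecules were followed here in the brain vessels of mice: Icam1, Icam2, Vcam1, Sele, Selp, Ackr1, Pecam1 and Cd34. They were found by their symbols, and all 8 were present among the 32287 gene rows of the count tables. Single-cell RNA sequencing had been done on cells from cerebral microvessels of 11 mice, 1 library per mouse. Animals of 6 and 9 months of both sexes were used, none of them treated. The transgene of the R182C-TgN3 mice is human NOTCH3 bearing R182C, a mutation that causes CADASIL, an inherited small vessel disease. The WT-TgN3 controls carry the wild-type human NOTCH3 transgene, so both genotypes have an added human gene besides their own Notch3.

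There were 6 R182C-TgN3 mice, 3 of 9 months and 3 of 6 months, and 5 WT-TgN3 mice, 2 of 9 months and 3 of 6 months. Here R182C 1, 2 and 3 and WT 4 and 5 denote the 9-month mice and the other numbers the 6-month mice. The 9-month mice were prepared in batches 1 and 2 and the 6-month mice in batches 3 and 4, so age and batch cannot be told apart, and batch 2 held 1 mouse, R182C 3. Vessel fragments had been captured with magnetic beads against CD31, the protein of Pecam1, so a cell with no CD31 on its surface, or not attached to one that has it, was less likely to enter a library.

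The adhesion cascade runs in steps. Selectins on the endothelium slow a leukocyte by binding sugar ligands, integrins on the leukocyte then grip ICAM-1, ICAM-2 and VCAM-1, and CD31 acts at the cell junctions during passage. ACKR1, the Duffy antigen receptor, binds chemokines without signalling and carries them across venular endothelium, and in many tissues this traffic takes place in postcapillary venules rather than in arteries or capillaries.

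The libraries held 66658 barcodes with 17550806 to 64215050 unique molecular identifiers (UMIs, the counted RNA molecules) each, and 56900 cells were used. Of 34761 endothelial cells, 24777 were placed in 1 of 5 subtypes by marker genes that include none of the 8: 14338 capillary, 5004 arterial, 3072 venous, 1607 fenestrated and 756 inflamed venule cells. The other 9984 fell between the subtypes and were left out of the sums. The genes that led each subtype included its own markers, with Gkn3 and Bmx in arterial, Mfsd2a in capillary, Il1r1 and Nr2f2 in venous, Lrg1, Lcn2 and Ch25h in inflamed venule and Plvap and Esm1 in fenestrated cells. Inflamed venule cells came from 10 mice, because WT 5 had 2 of them, and numbered 21 to 230 per mouse. Their median of 16080 UMIs per cell lay far above the 7684 of venous, 6233 of arterial, 5437 of fenestrated and 4360 of capillary cells.

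Barcodes shared between libraries bear on these cells. Of 58538 cells that passed the filters, 1638 (2.80%) had a barcode that also occurred in another library, most often among the 6-month mice, with 350 barcodes in both R182C 4 and R182C 5. With these cells kept, they made up 300 of 854 inflamed venule cells (35.1%), at a median of 1042 UMIs against 15330 for the others, but 130 of 3367 venous cells (3.86%). Keeping them also moved the gate of the other cells, from 118 to 86 inflamed venule cells in R182C 1 and from 230 to 187 in R182C 3, so values with them kept differ by both changes. They were left out of every value unless stated.

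Sequence just before the start site is shown for Sele, Selp and Ackr1, whose RNA was nearly missing from arterial and capillary cells, and for Icam1, which was highest on the venous side but present in other subtypes too. The 120 bases before the RefSeq start are given on the coding strand (assembly GRCm38.p6). Capitals mark matches to 4 short patterns. The NF-kB type pattern is GGGA, then 4 free bases, then CC. The TATA box was searched as TATAAA. The AP-1 pattern was TGANTCA, with N for any base. The STAT type pattern was TTCNNNGAA.
Sele promoter, chr1:164048114-164048233 (+ strand): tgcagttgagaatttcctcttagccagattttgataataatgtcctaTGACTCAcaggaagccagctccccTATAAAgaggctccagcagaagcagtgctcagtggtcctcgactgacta
Selp promoter, chr1:164115144-164115263 (+ strand): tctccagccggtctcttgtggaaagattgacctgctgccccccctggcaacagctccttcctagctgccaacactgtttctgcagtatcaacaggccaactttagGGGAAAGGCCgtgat
Ackr1 promoter, chr1:173333504-173333623 (- strand): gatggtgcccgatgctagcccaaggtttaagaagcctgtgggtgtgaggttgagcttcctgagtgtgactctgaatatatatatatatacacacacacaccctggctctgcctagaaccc
Icam1 promoter, chr9:21015820-21015939 (+ strand): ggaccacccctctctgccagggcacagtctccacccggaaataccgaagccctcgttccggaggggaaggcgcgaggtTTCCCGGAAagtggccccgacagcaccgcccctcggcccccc

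Both strands were searched from 250 bases before to 50 bases after each start. The Sele window held a TATA box at position -49 counted from the start and an AP-1 match at -73. Further upstream, outside the bases shown, it held GGGAATATCC on the minus strand at -145, which overlaps TTCCCAGAA at -140. Selp had GGGAAAGGCC at -15 and TGATTCA at -139, and Icam1 had TTCCCGGAA at -42 and TATAAA at 14 after the start. None of these 4 patterns was found in the Ackr1 window. The 120 bases shown for Ackr1 lie inside its GENCODE span (chr1:173331886-173333750), so they precede the RefSeq start but not the GENCODE start. Among 32851 promoters of the same length 20.7% held the NF-kB pattern, 13.6% the TATA box, 7.81% the AP-1 pattern and 8.30% the STAT pattern, so a single match is a description only. Promoter sequence was given for 5 of the 8 genes.

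Sele and Selp lie near each other on chromosome 1, Sele at chr1:164048234-164057677 and Selp at chr1:164115264-164150026 on the plus strand (GRCm38, GENCODE). Ackr1 (chr1:173331886-173333750, minus strand) overlaps Cadm3 on the same strand, so reads from their shared bases cannot be told apart and the Ackr1 level is uncertain to that extent. Icam1 is at chr9:21015985-21028817, Vcam1 at chr3:116109949-116129688, Icam2 at chr11:106377656-106388075, Pecam1 at chr11:106654217-106750628 and Cd34 at chr1:194938819-194961279. Icam1, Vcam1, Selp and Cd34 each overlap a gene of the opposite strand.

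The first question was in which vessel segment each gene was found. Levels are CPM, the UMIs of a gene scaled by the total of its sum, 1 sum per mouse and subtype, and they are compared between subtypes within a gene and not between genes. Differences were tested with edgeR's quasi-likelihood test with mouse as a term in 54 sums, with Benjamini-Hochberg adjustment over 11542 genes. A gene was called where the adjusted p was under 0.05. Sele, Selp and Ackr1 had too few counts in arterial and capillary sums to pass the low-count filter there and entered this fit through the sums where they are high. Counts of called genes are therefore given over the other 5, except for fenestrated against capillary cells, and the values of these 3 are a description.

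E-selectin (Sele) catches rolling leukocytes and is made on demand by activated endothelium. Its RNA was found mainly on the venous side. Sele was at 45.0 ± 57.7 CPM in inflamed venule cells (SD, n = 10) and at 4.75 ± 5.33 CPM in venous cells (SD, n = 11). All arterial cells together held 2 Sele UMIs and all capillary cells 6. In inflamed venule cells the Sele level was 27.4, 66.4, 49.0, 21.0, 2.89 and 15.9 CPM in R182C 1 to 6 and 50.8, 18.2, 197.6 and 1.07 CPM in WT 1 to 4. WT 3 was far above every other mouse, and R182C 5 and WT 4 were at a level of 1 UMI each. The value of 66.4 in R182C 2 came from 35 UMIs, 32 of them in a single cell.

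P-selectin (Selp), which is stored in granules of endothelial cells and platelets and released within minutes, followed the same order. Its level was 102 ± 167 CPM in inflamed venule (SD, n = 10), 3.97 ± 6.25 in venous and 2.93 ± 4.67 in fenestrated cells (SD, n = 11). Arterial and capillary cells held 11 Selp UMIs each. Selp in inflamed venule cells was 35.0, 127, 48.7, 8.99, 26.0 and 70.4 CPM in R182C 1 to 6 and 107.6, 30.05, 564.7 and 3.20 CPM in WT 1 to 4. WT 3 was again the highest and WT 4 the lowest, so the spread over mice exceeded the mean for both selectins. The summed level of 4 platelet markers was also highest in the inflamed venule, with a median over mice of 11.9 CPM (2.03 to 24.7), against 10.1 in capillary, 8.94 in venous, 5.91 in fenestrated and 4.07 CPM in arterial cells, and its part in the Selp level was not tested. Most of it was Itga2b, an integrin chain of platelets. Itga2b was at 12.0 CPM in all inflamed venule cells, 9.06 in venous, 6.97 in capillary, 4.46 in fenestrated and 2.50 CPM in arterial cells. Ppbp and Gp9, at 0.741 and 0.518 CPM in the inflamed venule, were above venous (0.352 and 0.3245) but below capillary cells (1.47 and 0.770). Gp1bb had 0 UMIs in the inflamed venule.

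Ackr1 varied less from mouse to mouse. It stood at 130.3 ± 71.3 CPM in inflamed venule (SD, n = 10), 10.1 ± 5.06 in venous and 8.85 ± 2.65 CPM in fenestrated cells (SD, n = 11), against 5 UMIs in all arterial and 6 in all capillary cells. Across R182C 1 to 6 the inflamed venule level of Ackr1 was 158.8, 68.3, 108.9, 64.4, 69.4 and 139.9 CPM, and across WT 1 to 4 it was 166.5, 84.6, 300.6 and 141.8 CPM. The lowest inflamed venule value of Ackr1 was 64.4 CPM and its highest venous value 17.1 CPM. How many of all genes lie as far apart between these subtypes was not counted.

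**Figure D1:**
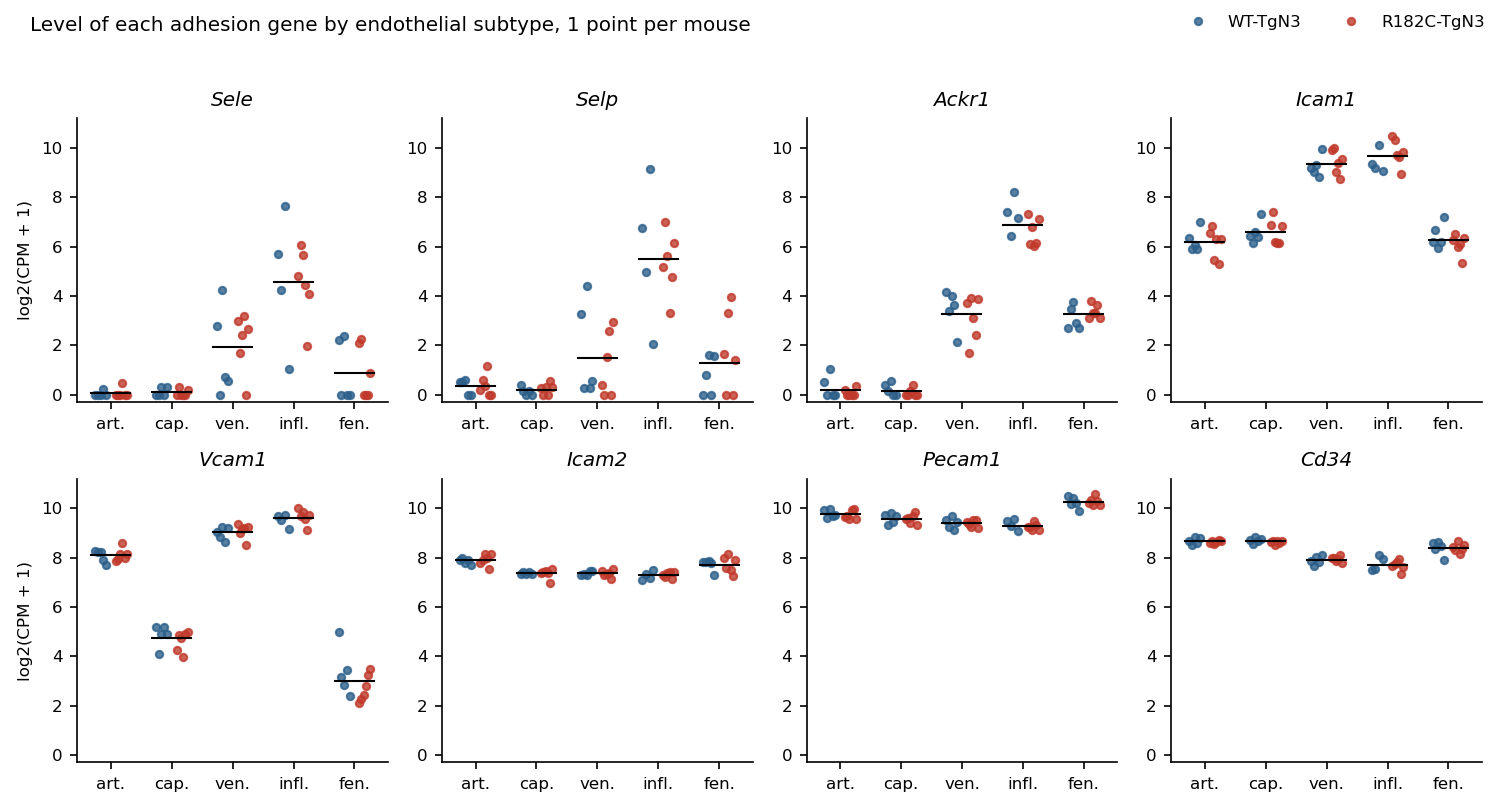
Level of the 8 genes as log2(CPM + 1) in arterial (art.), capillary (cap.), venous (ven.), inflamed venule (infl.) and fenestrated (fen.) endothelial cells, 1 point per mouse, blue for WT-TgN3 and red for R182C-TgN3, with a black line at the mean over mice. Sele, Selp and Ackr1 sit near 0 in arterial and capillary cells and rise in the inflamed venule, whereas Icam2, Pecam1 and Cd34 are present in all 5 subtypes.

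ICAM-1 (Icam1) is the main ligand of the leukocyte integrin LFA-1 and is induced by inflammatory cytokines. Icam1 was present in every subtype but was highest on the venous side, at 861.6 ± 322.9 CPM in inflamed venule (SD, n = 10) and 685.2 ± 218.6 CPM in venous cells, against 100.3 ± 35.5 in capillary, 79.1 ± 27.6 in fenestrated and 76.1 ± 27.1 CPM in arterial cells (SD, n = 11). In venous cells the Icam1 values were 970, 1023, 525, 662, 433 and 748 CPM in R182C 1 to 6 and 589, 521, 627, 449 and 990 CPM in WT 1 to 5. Its highest arterial value was 125 CPM and its highest capillary value 167 CPM. The order from high to low was inflamed venule, venous, capillary, fenestrated, arterial, and the last 2 neighbours were not told apart (log2 difference of arterial from fenestrated -0.10, adjusted p = 0.510).

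VCAM-1 (Vcam1), the ligand of the integrin VLA-4, had another distribution, since it was also abundant in arteries. It was at 794.6 ± 144.6 CPM in inflamed venule (SD, n = 10), 532.6 ± 92.5 in venous, 275.4 ± 48.1 in arterial, 26.4 ± 7.12 in capillary and 8.66 ± 7.76 CPM in fenestrated cells (SD, n = 11). Arterial Vcam1 ran from 204 through a median of 281 to 381 CPM and capillary Vcam1 from 14.8 through 28.7 to 35.3 CPM. In venous cells Vcam1 was 649, 510, 574, 590, 361 and 597 CPM in R182C 1 to 6 and 531, 461, 602, 392.5 and 591 CPM in WT 1 to 5. The lowest of these was R182C 5. From inflamed venule to capillary cells all neighbours in the order of Vcam1 differed by the test. Its fenestrated counts were under the low-count filter, so that last step is a description.

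Icam2 and Pecam1, which are carried by resting endothelium, and Cd34, a surface sialomucin, were present in all 5 subtypes. Icam2 was at 238.4 ± 30.1 CPM in arterial, 213.4 ± 40.3 in fenestrated, 164.4 ± 15.2 in capillary, 164.0 ± 12.3 in venous (SD, n = 11) and 156.5 ± 14.7 CPM in inflamed venule cells (SD, n = 10). Capillary, venous and inflamed venule Icam2 could not be told apart (adjusted p from 0.209 to 0.948). Pecam1 was highest in fenestrated cells at 1236 ± 160 CPM, followed by arterial at 868 ± 101, capillary at 771 ± 101 and venous at 680 ± 80.8 CPM (SD, n = 11), and by inflamed venule at 632 ± 77.3 CPM (SD, n = 10). Cd34 was lower on the venous side, at 242 ± 22.9 CPM in venous and 212 ± 34.5 CPM in inflamed venule cells, than in capillary (405 ± 26.2), arterial (404 ± 26.8) or fenestrated cells (338 ± 49.8).

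Between venous and capillary cells 4 of the 5 genes were called, 2 higher and 2 lower, where 47.1% of all genes tested were called (23.4% higher and 23.7% lower). The venous level was higher for Ackr1 by 6.39 ± 0.31 on the log2 scale (SE), Sele by 5.23 ± 0.47, Vcam1 by 4.31 ± 0.12, Selp by 4.11 ± 0.62 and Icam1 by 2.77 ± 0.09. The fitted values of Sele, Selp and Ackr1 rest on 6 to 11 UMIs in capillary cells and depend on the prior count of the fit. The adjusted p was 5.07e-34 for Vcam1 and 4.72e-32 for Icam1. Cd34 was lower by -0.75 ± 0.06 (adjusted p = 2.06e-15) and Pecam1 by -0.18 ± 0.04 (adjusted p = 0.000563).

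Inflamed venule cells were compared with venous cells to see which genes separate these neighbouring venous populations. Here 15.3% of all genes were called (8.27% higher and 7.01% lower) against 2 of the 5, Vcam1 and Icam1, both higher. As a description, Selp differed by 4.45 ± 0.30 on the log2 scale (SE), Ackr1 by 3.58 ± 0.13 and Sele by 2.94 ± 0.26. Vcam1 and Icam1 differed far less, by 0.59 ± 0.11 (adjusted p = 2.85e-05) and 0.42 ± 0.09 (adjusted p = 0.000159). Cd34, Pecam1 and Icam2 had differences of -0.17, -0.10 and -0.08 that did not pass (adjusted p from 0.104 to 0.415). The inflamed venule was set apart by Lrg1, Lcn2, Vwf and Ch25h, genes that may vary together with the selectins, and 107 of its 756 cells lay near the limit of the gate. With any 1 mouse left out the difference ran from 4.199 to 4.73 for Selp and from 2.74 to 3.14 for Sele. These ranges are a description too.

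In arterial against capillary cells 4 of the 5 were called, where 53.9% of all genes were (26.2% higher and 27.7% lower). Vcam1 was higher in arteries by 3.37 ± 0.12 on the log2 scale (SE, adjusted p = 2.48e-30), Icam2 by 0.53 ± 0.05 (adjusted p = 5.22e-14) and Pecam1 by 0.17 ± 0.04 (adjusted p = 0.000942). Icam1 was lower by -0.40 ± 0.09 (adjusted p = 0.000213). That direction depended on how capillary cells were chosen, because Icam1 was higher in arteries by 0.10 with a stricter gate (adjusted p = 0.474) and by 0.32 with clusters in place of the gate (adjusted p = 0.00518). Cd34 had a difference of -0.00 with an adjusted p of 0.981.

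Fenestrated cells, which line vessels without a blood-brain barrier, were also set against capillary cells. Pecam1 and Icam2 were called higher and Cd34 and Icam1 lower, where 59% of all genes were called (29.4% higher and 29.6% lower). Vcam1 was itself under the filter in fenestrated sums and entered through the sums where it is high, so its value here is a description. Ackr1 was higher by 6.26 ± 0.42 on the log2 scale (SE), Selp by 3.60 ± 0.96 and Sele by 3.57 ± 0.86. Pecam1 was higher by 0.66 ± 0.05 and Icam2 by 0.34 ± 0.06. Vcam1 was lower by -1.82 ± 0.27, Cd34 by -0.28 ± 0.06 and Icam1 by -0.31 ± 0.11 (adjusted p = 0.0161). The selectin differences rest on 13 Sele and 22 Selp UMIs in fenestrated cells, and that of Selp no longer passed the threshold with a stricter gate. Icam1 was higher in fenestrated cells by 0.48 with clusters in place of the gate (adjusted p = 0.00064), and its call was lost without R182C 2 (adjusted p = 0.102). The Ackr1 level of fenestrated cells lay near that of venous cells (log2 difference 0.13), whereas Vcam1 was higher in venous cells by 6.13 and Icam1 by 3.07.

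Between arterial and venous cells 5 of the 5 genes were called, where 56.1% of all genes were (27.8% higher in arteries and 28.3% lower). Icam1 was lower in arteries by -3.17 and Vcam1 by -0.95 on the log2 scale, while Cd34 was higher by 0.74, Icam2 by 0.54 and Pecam1 by 0.36. Venous cells held 176 Sele, 129 Selp and 386 Ackr1 UMIs where arterial cells, which were more numerous, held 2, 11 and 5.

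**Figure D2:**
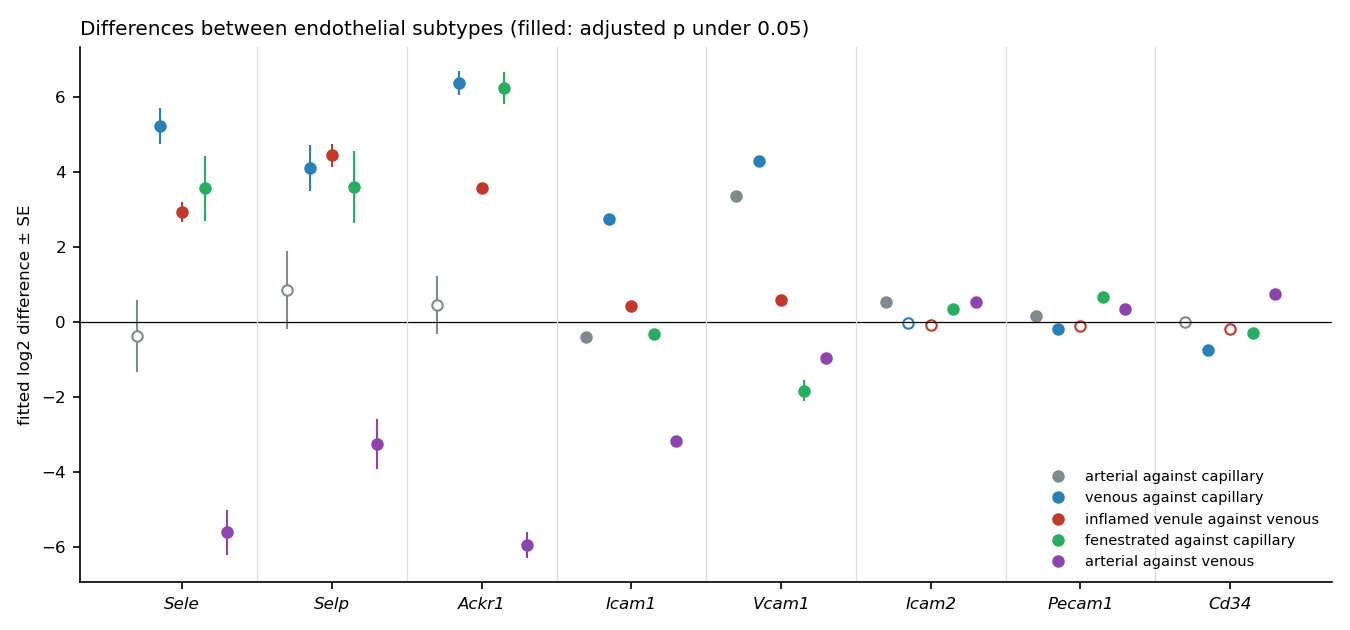
Fitted log2 difference ± SE of each of the 8 genes in 5 comparisons of endothelial subtypes, filled where the adjusted p was under 0.05. Sele, Selp and Ackr1 entered the fit through the sums where they are high, as did Vcam1 in fenestrated cells, so their fill is descriptive. Selp, Ackr1 and Sele have the largest differences of inflamed venule from venous cells (4.45, 3.58 and 2.94), and Icam2 differs little in all 5.

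Because the genes were so unequal between subtypes, the share of each gene's RNA from the rare subtypes was counted. Inflamed venule cells were 3.05% of the gated endothelial cells and held 86.8% of 1312 Selp UMIs, 78.5% of 2274 Ackr1 UMIs and 74.5% of 774 Sele UMIs. The share differed widely between mice, from 18.2% in R182C 4 to 97.1% in R182C 2 for Selp and from 20% in WT 4 to all of the UMIs in R182C 5 and WT 2 for Sele, and it was 0 for both in WT 5. WT 3 alone gave 543 of the 1139 inflamed venule Selp UMIs. They held 26.2% of the Vcam1 and 24.4% of the Icam1 UMIs, but 6.65% of the Icam2, 5.99% of the Pecam1 and 4.72% of the Cd34 UMIs. Venous cells, 12.4% of the cells, held 51.6% of Icam1 and 45.2% of Vcam1. Arterial cells gave 24.0% of Vcam1, and the far more numerous capillary cells, 57.9% of all, gave 4.45%. These shares count UMIs, and inflamed venule cells had more UMIs per cell than the others.

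The next question was how the RNA was spread over single cells. Each cell was thinned to 2000 UMIs, and cells with fewer were left out, 164 arterial, 827 capillary, 125 venous, 3 inflamed venule and 73 fenestrated. At this depth Icam1 was found in 61.9% of inflamed venule cells (95% exact binomial interval 58.3 to 65.4), 45.1% of venous, 13.8% of fenestrated, 10.2% of capillary and 9.61% of arterial cells. Vcam1 was found in 67.3% of inflamed venule (63.9 to 70.7), 46.9% of venous, 25.6% of arterial, 2.44% of capillary and 0.848% of fenestrated cells. The intervals cover counting error only.

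Ackr1, Selp and Sele were found in a minority of cells even where they were highest. Ackr1 was detected in 17.4% of inflamed venule cells (14.8 to 20.3) and 2.04% of venous cells, Selp in 7.57% (5.78 to 9.70) and 0.577%, and Sele in 3.59% (2.38 to 5.17) and 0.543%. After thinning Sele was detected in 0 of 4840 arterial cells, which allows a share of cells with a UMI at this depth of up to 0.0620%, and in 0 of 13511 capillary cells, which allows up to 0.0222%. The 95% exact upper limits were 0.0762% and 0.0273%, and at full depth these cells held 2 and 6 Sele UMIs. At full depth the inflamed venule shares were 87.6% for Icam1, 93.8% for Vcam1, 48.0% for Ackr1, 17.7% for Selp and 14.4% for Sele. Pecam1, Cd34 and Icam2 were detected in 68.3%, 34.8% and 29.0% of inflamed venule cells after thinning and in 75.1%, 54.5% and 28.2% of capillary cells.

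Other cell types gave the background. In smooth muscle cells, with a median of 8007 UMIs, no gene of the 8 was detected in more than 0.983% of cells after thinning. In microglia, with a median of 5005 UMIs, Sele and Selp were found in 0 of 11962 cells, which allows up to 0.0251% at this depth (95% exact upper limit 0.0308%), where full depth gave 1 and 6 UMIs. Ackr1 was found in 0.0251% of microglia, Icam2 in 0.401% and Vcam1 in 1.78%. The pooled capillary share of Vcam1 was 2.44%. Over mice the Vcam1 share was 2.525 ± 0.819% in capillary cells (1.38 to 3.80) and 1.64 ± 0.491% in microglia (0.858 to 2.22; SD, n = 11). These ranges overlapped. Icam1, which microglia are known to carry, was found in 32.02% of microglia at 228.1 ± 34.4 CPM (SD, n = 11), and Cd34 in 13.1% at 77.7 ± 9.04 CPM. The summed level of 9 microglial markers in inflamed venule cells had a median over mice of 295 CPM (176 to 422) against 379 in venous, 439 in arterial, 506 in fenestrated and 524 CPM in capillary cells. Its part in the Icam1 levels was not tested. In B cells 35.8% had a Pecam1 UMI and 0.753% each a Sele or a Selp UMI (5 cells each, 0.245 to 1.75). The pooled venous shares of Sele and Selp, 0.543% and 0.577%, were not above this level, whereas the pooled inflamed venule shares were. At full depth single venous cells held up to 22 Sele and 23 Selp UMIs. Whether the venous shares are background was not tested.

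**Figure D3:**
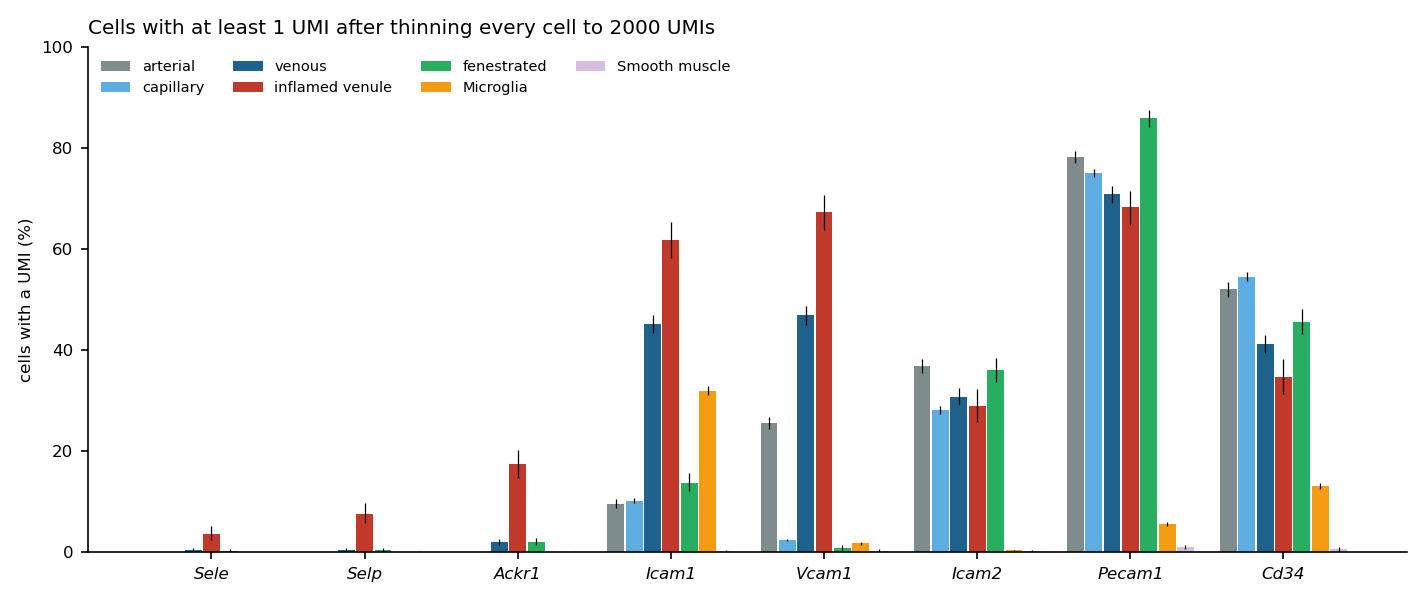
Percent of cells with at least 1 UMI of each gene after thinning every cell to 2000 UMIs, in the 5 endothelial subtypes, microglia and smooth muscle cells. Bars start at 0 and lines are 95% exact binomial intervals. Sele (3.59%), Selp (7.57%) and Ackr1 (17.4%) have their tallest bars in the inflamed venule, and Icam1 also has a tall bar in microglia (32.02%).

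Within the inflamed venule the selectin RNA was concentrated in few cells. The 1139 Selp UMIs were in 134 of the 756 cells, with up to 70 in 1 cell, and the richest 12 cells held at least as many as all others together. The 577 Sele UMIs were in 109 cells, and 18 cells held at least as many as the rest. Ackr1 was spread more widely, with 1786 UMIs in 363 cells, and it took 53 cells to match the rest. Icam1 and Vcam1 took 115 and 134 cells. In WT 3, the mouse with the most Selp, 26 inflamed venule cells held 543 Selp UMIs, and 5 of them held at least as many as the others. The selectin level of a mouse thus depended on a handful of cells.

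Detection in the same cell was counted in 753 thinned inflamed venule cells. Of 27 cells with Sele, 12 also had Selp, which is 44.4% of the Sele cells and 21.1% of the 57 Selp cells. Icam1 was found in 24 of the 27 Sele cells (88.9%) and in 45 of the 57 Selp cells, and Vcam1 in 19 and 47 of them. Icam1 and Vcam1 occurred together in 336 cells, 72.1% of the Icam1 cells and 66.3% of the Vcam1 cells. Over all 753 cells Icam1 was found in 61.9%, Vcam1 in 67.3%, Selp in 7.57% and Sele in 3.59%. The overlap of Icam1 with Vcam1, and the Vcam1 share of the Sele cells (70.4%), were thus near the shares over all cells. Of the 5 inducible or venous genes Sele, Selp, Ackr1, Icam1 and Vcam1, none was detected in 12.6% of inflamed venule, 32.6% of venous, 68.5% of arterial, 83.2% of fenestrated and 88.0% of capillary cells. All 5 were detected together in 3 cells, each of the inflamed venule.

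Over the 54 mouse and subtype sums the gene nearest to Sele by Pearson's r of log2(CPM + 1) was Selp (r = 0.859), and the gene nearest to Ackr1 was Lrg1 (r = 0.962), which is itself a marker of the inflamed venule gate. Ier3 was nearest to Icam1 (r = 0.966), Myof to Vcam1 (r = 0.958), Col4a2 to Pecam1 (r = 0.953), Anxa3 to Cd34 (r = 0.928) and Crip1 to Icam2 (r = 0.871). Among the 8 themselves Icam1 and Cd34 ran in opposite order (r = -0.83), and Icam1 and Vcam1 together (r = 0.71). The sums share mice and libraries and are not independent, so these values only describe likeness.

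The comparison of genotypes was made first in all 5 subtypes together, in 11 mice. None of the 8 genes was called, and 0% of 12581 genes tested were, with 241 at an unadjusted p under 0.05 (edgeR's quasi-likelihood test, and also 0 called and 227 by DESeq2). Icam1 was at 416, 338.8, 273.9, 336, 144 and 342.6 CPM in R182C 1 to 6 and at 242.7, 208, 316, 177 and 252 CPM in WT 1 to 5. The groups overlapped, with the lowest value of all in R182C 5. The log2 difference of Icam1 was 0.43 ± 0.22 (SE, unadjusted p = 0.0700, adjusted p = 0.999) in the edgeR fit.

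Pooled Vcam1 was at 302, 186, 318, 363, 152 and 302 CPM in R182C 1 to 6 and at 278, 230.2, 297, 191 and 134 CPM in WT 1 to 5, with a log2 difference of 0.32 ± 0.25. Sele was at 3.99, 2.84, 11.1, 4.47, 0.128 and 3.11 CPM in R182C 1 to 6 and at 4.53, 1.09, 23.2, 0.244 and 0.181 CPM in WT 1 to 5. Selp was at 3.11, 3.996, 11.4, 3.21, 1.41 and 9.57 CPM against 8.38, 2.04, 57.7, 0.244 and 0.361 CPM. WT 3 was the highest mouse for both selectins and WT 4 and WT 5 were among the lowest. The log2 differences of Sele, Selp and Ackr1 were -0.22 ± 0.96, -1.11 ± 1.00 and 0.13 ± 0.63, and those of Icam2, Cd34 and Pecam1 were 0.05, -0.01 and -0.01.

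**Figure D4:**
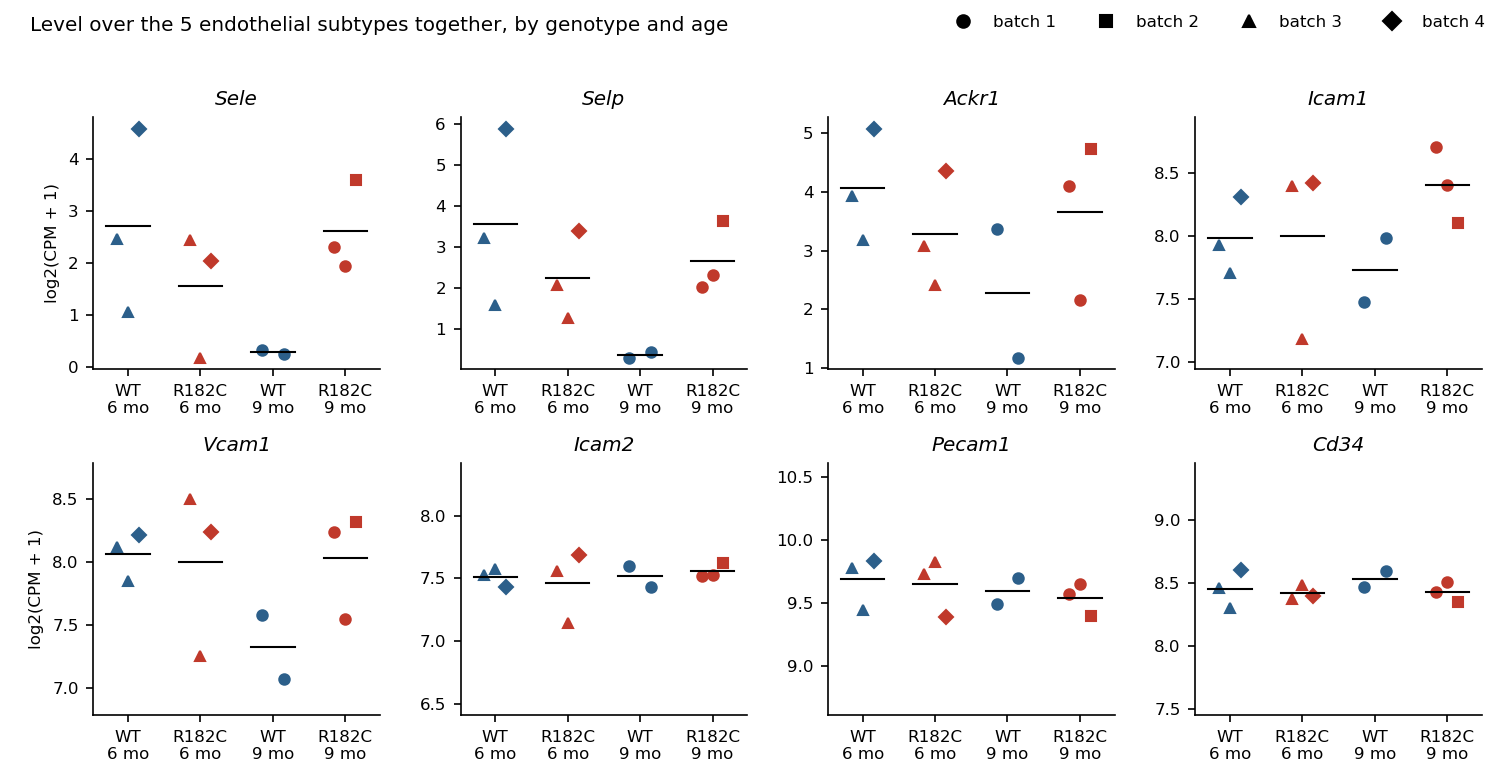
Level of each gene over the 5 endothelial subtypes together as log2(CPM + 1), 1 point per mouse, by genotype and age in months (mo). Marker shape gives the batch (1 to 4) and the black line the mean; the axes differ between panels and do not start at 0. The genotypes overlap in every panel, and Selp is lowest in the 2 WT-TgN3 mice of 9 months.

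Pooled levels also follow the mix of subtypes, which was therefore compared. Inflamed venule cells were 3.64 ± 2.78% of gated cells in R182C-TgN3 (SD, n = 6) and 2.02 ± 1.21% in WT-TgN3 mice (SD, n = 5), with a two-sided exact permutation p of 0.277 (adjusted over 5 subtypes 0.693). Venous cells were 13.04 ± 6.74% and 12.57 ± 2.84%. Fenestrated cells, 4.95 ± 1.20% against 8.15 ± 3.22%, had the smallest exact permutation p, 0.0152, adjusted 0.0758, and 0.0417 (adjusted 0.208) with the genotypes exchanged within batches. The summed level of choroid plexus markers in endothelial cells moved with it, with a median of 110 CPM in R182C-TgN3 (70.8 to 235) and 213 CPM in WT-TgN3 mice (167 to 280), and its part in the share was not tested.

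Inside each subtype the mix of the 5 subtypes does not enter, though the cells within a gate may still differ between mice. No gene of the 8 was called in any subtype, and the share of all genes called was 0% in arterial, capillary, venous and fenestrated cells and 0.0117% in inflamed venule cells, where 8 of the 8 could be tested. The low counts left 5 of the 8 to test in arterial and capillary, 7 in venous and 4 in fenestrated cells. At an unadjusted p under 0.05 edgeR gave 157 genes in arterial, 246 in capillary, 216 in venous and 291 in fenestrated cells. The single gene called in inflamed venule cells was Depp1, higher in R182C-TgN3 by 1.59 on the log2 scale (adjusted p = 0.0496), which was named after its value was seen.

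In inflamed venule cells Selp had a log2 difference of -1.70 ± 0.71 (SE, unadjusted p = 0.0265), Ackr1 of -0.63 ± 0.28 (unadjusted p = 0.0396) and Sele of -1.01 ± 0.63 (unadjusted p = 0.126), each with an adjusted p of 1.00 in the edgeR fit of 10 mice. These values hung on 1 mouse. Without WT 3 the difference of Selp became 0.44 and that of Sele 0.75, while that of Ackr1 was between -0.87 and -0.21 whichever mouse was left out. With the barcodes found in several libraries kept, Ackr1 went from 69.4 to 1298 CPM in R182C 5, from 64.4 to 613.8 CPM in R182C 4 and from 301 to 625 CPM in WT 3, and its log2 difference turned to 0.47, with the gate moved as well. Icam1 in the inflamed venule was 1434, 1280, 835, 788, 491 and 913 CPM in R182C 1 to 6 and 654, 577, 1108 and 536 CPM in WT 1 to 4, a log2 difference of 0.46 ± 0.24 (unadjusted p = 0.0754).

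Within batches the direction of the selectins was not constant. In batch 1 inflamed venule Selp was 81.0 CPM in R182C-TgN3 (2 mice) and 3.20 CPM in WT-TgN3 (1 mouse), in batch 3 it was 17.5 and 68.8 CPM (2 mice each), and in batch 4 it was 70.4 and 565 CPM (1 mouse each). Sele ran the same way, with pooled levels of 3.41 and 0.212 CPM in batch 1, 2.30 and 2.81 CPM in batch 3 and 3.11 and 23.2 CPM in batch 4. Pooled Icam1 was 377 and 215 CPM in batch 1, a mean log2 difference of 0.83, but 240 and 226 CPM in batch 3 (-0.03) and 343 and 316 CPM in batch 4 (0.12). Inflamed venule Ackr1 was lower in R182C-TgN3 in all 3 of these batches, by -0.44, -0.82 and -1.10. Batch 2 held R182C 3 alone and gives no such value.

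**Figure D5:**
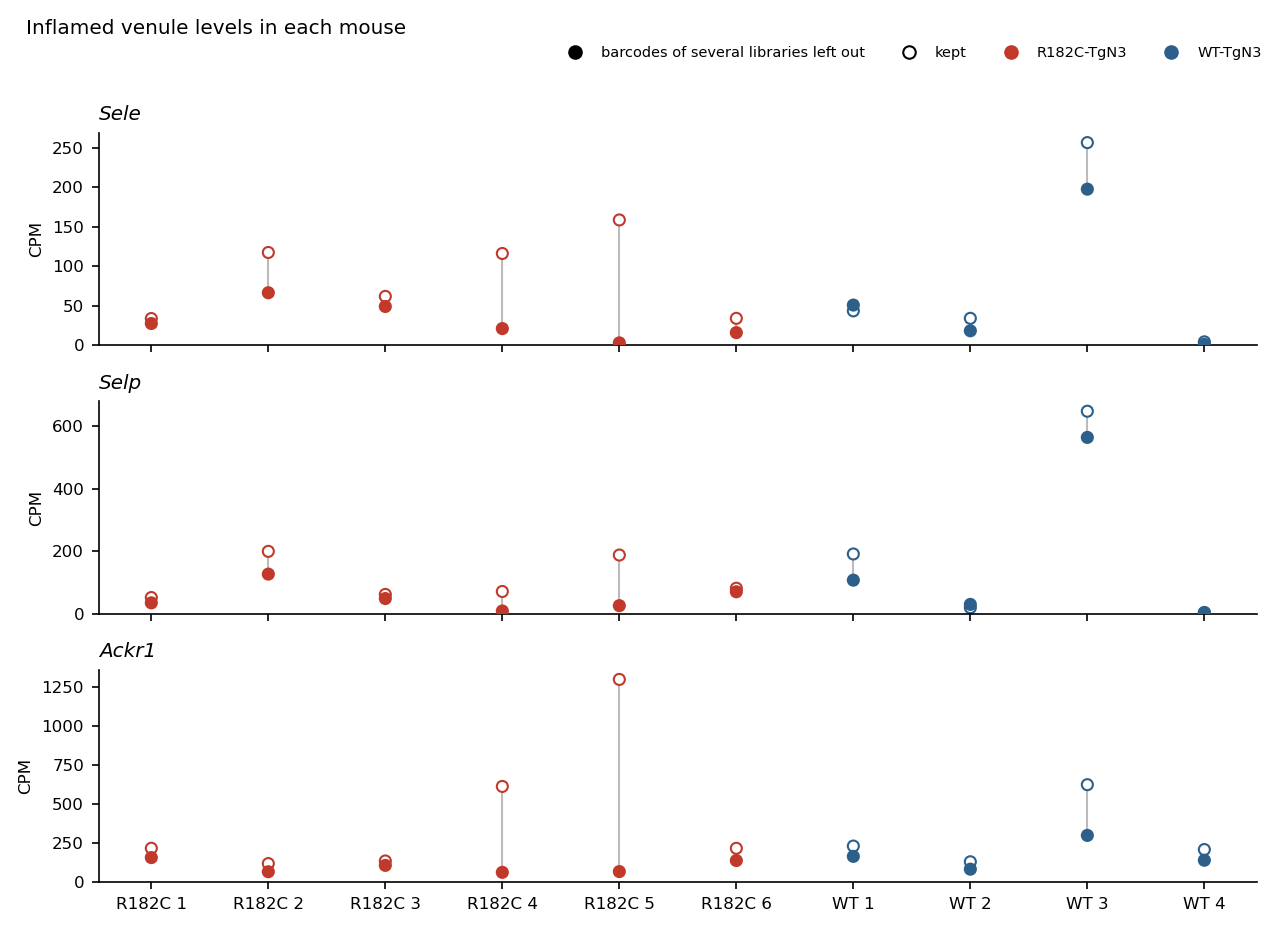
CPM of Sele, Selp and Ackr1 in inflamed venule cells of each of 10 mice, filled with barcodes of several libraries left out and open with them kept; WT 5 is absent. WT 3 is highest for Selp (564.7 CPM), and the open Ackr1 points of R182C 4 and R182C 5 lie far above the filled ones.

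The 9-month mice were compared with 6-month mice with genotype as a term, and none of the 8 genes was called, where 0.564% of 12937 genes were (0.24% higher and 0.325% lower at 9 months). Selp had the lowest unadjusted p of the selectins, with a log2 difference of -1.64 (unadjusted p = 0.196). Whether the genotype difference itself differed with age was tested by an interaction term, and 0% of 13183 genes were called. The largest of the interaction values among the 8 were those of Sele, 6.55 ± 1.79 on the log2 scale (SE, unadjusted p = 0.00336), and Selp, 6.41 ± 1.90 (unadjusted p = 0.00556), both with an adjusted p of 1.00. At 9 months pooled Sele averaged 5.99 CPM in 3 R182C-TgN3 and 0.212 CPM in 2 WT-TgN3 mice, and at 6 months 2.57 and 9.60 CPM in 3 mice each. Selp averaged 6.15 and 0.302 CPM at 9 months and 4.73 and 22.7 CPM at 6 months, the last value set by WT 3.

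Genes of the same pathway were counted from lists of related functions. The lists were chosen with earlier results of these data known, so their counts are a description. The venous gate uses Il1r1 and the inflamed venule gate uses Lrg1, Lcn2 and Ch25h, which may vary together with listed genes. The part of the gates in the counts was not tested. Of 20 tested cytokine receptor and NF-kB genes, 18 were higher and 0 lower in venous than in capillary cells (23.4% and 23.7% of all genes). Their median log2 difference was 0.97. Irf1, a transcription factor induced by interferon, was higher by 1.65, Il6st, the shared receptor of the interleukin 6 family, by 1.49, Nfkbiz by 1.46 and Relb by 1.13. In inflamed venule against venous cells 11 of the 20 were higher and 0 lower (8.27% and 7.01% of all genes), with a median of 0.36, among them Bcl3 by 0.88, Irf1 by 0.68, Tnfrsf1a, a receptor of tumour necrosis factor, by 0.63 and Il6st by 0.59. The median over all genes tested was within 0.03 of 0 in each of these comparisons.

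Chemokines and atypical receptors showed both directions. Of 10 tested in venous against capillary cells 6 were higher and 3 lower, where 23.4% and 23.7% of all genes were. Ccl19, which attracts T cells and dendritic cells, was higher by 3.97 on the log2 scale, Cxcl10 by 3.90 and the neutrophil attractant Cxcl1 by 2.15. Cxcl12, a homeostatic chemokine, was lower by -3.52. Ccl19 averaged only 0.596 CPM in capillary against 9.25 CPM in venous cells. It entered the fit through the sums where it is high, so its value is a description, though the count includes it. The inflamed venule had 4 higher and 2 lower than venous cells (8.27% and 7.01% of all genes), with Ccl19 at 1.06, Cxcl1 at 0.97, Cxcl10 at 0.90 and Cxcl12 at -0.64. Fenestrated cells had 5 higher and 3 lower than capillary cells (29.4% and 29.6% of all genes), including Cxcl16 at 3.10 and Cx3cl1 at 1.36. Cxcl16 averaged 1.96 CPM in capillary cells, so its value is a description too.

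Of 13 tested selectin ligand and other adhesion genes 5 were higher and 5 lower in venous than in capillary cells, where 47.1% of all genes were called. Icam5 was higher by 3.08 and Clec14a by 1.25, and Chst2, a sulfotransferase, was lower by -2.70 on the log2 scale. Icam5 averaged 1.10 CPM in capillary and Chst2 1.03 CPM in venous cells, so these 2 values are a description. In fenestrated cells 8 were higher and 2 lower than in capillary cells (29.4% and 29.6% of all genes), with Mcam at 4.68, Chst2 at 4.50 and St3gal4 at 3.15. Arterial cells had 7 higher and 5 lower than capillary cells (26.2% and 27.7% of all genes), with Gcnt1 at 3.89 and Mcam at 2.94. Of 16 transmigration and junction genes 5 were higher and 5 lower in venous than in capillary cells, 8 and 3 in arterial and 8 and 4 in fenestrated cells, where 47.1%, 53.9% and 59% of all genes were called in either direction. In fenestrated cells Jam3, a junctional adhesion molecule, was higher by 5.99. No gene of any list was called for genotype, age or their interaction.

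The partners on the leukocyte side were found on other cells of the same libraries. Selplg, the P-selectin ligand PSGL-1, averaged 1009 CPM in microglia, 278 CPM in T or NK cells and 6.95 CPM in endothelial cells. Itgam, a chain of the ICAM-1 receptor Mac-1, was at 439 CPM in microglia, and Itgal, a chain of LFA-1, at 120 CPM in T or NK cells but 0.921 CPM in microglia. Itga4, a chain of the VCAM-1 receptor VLA-4, was at 485 CPM in T or NK cells, 272 in B cells and 242 CPM in pericytes, against 7.71 CPM in endothelial cells. T or NK cells could be summed in 4 mice and B cells in 9, so these levels rest on few cells.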

How the data were processed

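Single-cell RNA sequencing libraries of 11 mice (10x Genomics, 3′ droplets) were analysed. The deposited values are UMI counts per gene and barcode with no normalization, made by the authors with Cell Ranger 7.0.0 on the mm10 transcriptome with human NOTCH3 added. A barcode was used if it had 500 genes or more and no more than 10% of its UMIs from mitochondrial genes. Barcodes found in several libraries were left out, and doublets were removed by a Scrublet-type score up to 0.8% per 1000 barcodes. No mouse was left out. Endothelial cells were assigned to arterial, capillary, venous, inflamed venule and fenestrated subtypes by the scores of their marker genes, none of them a gene reported on, and cells between scores stayed unassigned. UMIs were summed per mouse over cells of a subtype with at least 20 cells (10 for the inflamed venule). As the study did, the fits omitted genes of the ribosome and mitochondria and those named Gm or Rik.

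In R 4.3.3, edgeR 4.0.16 was used for the filter on low counts (filterByExpr), the TMM normalization and the quasi-likelihood test, with Benjamini-Hochberg adjustment over all genes tested, for genotype, age, genotype by age, and subtype with mouse as a term. Shares of cells were tested by exact permutation over mice. P-values for genotype, age, genotype by age and shares of cells measure the spread between these mice. In the subtype fits the mouse term removes the level of each mouse. P-values of those fits measure the spread that remains among the sums per mouse and subtype. The fits were tested on simulated data. Alternatives used DESeq2 1.42.0, the DESeq2 size factors with the edgeR test, no filter on low counts, batch, sex or a replicate block as covariates, other cell filters and gates, Leiden clusters (scanpy 1.11.5, igraph 0.11.9) in place of the gate, and each mouse left out in turn. Keeping shared barcodes was an alternative chosen after the data were seen. Besides the 8 genes, the 3 genes nearest to each and, per list, the 4 called genes with the lowest p could be named. The 8 genes and the lists were chosen with earlier results of these data known. Figures were drawn with matplotlib 3.10.9 in Python 3.11.15, with numpy 2.4.6, scipy 1.17.1 and pandas 2.3.3. Replicate numbers of the labels were checked for pairing: the deviations of same-numbered mice of an age correlated between -0.09 and 0.37 over 12581 genes, so the numbers were not taken to pair the mice.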

Additional observations from a re-analysis of the deposited data

Results flagged for a closer look

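Each group of 4 to 6 mice was searched for a single mouse far from the rest (Dixon's test), and 13 of 106 groups had one, where about 1 in 20 is flagged by chance, or 5.3 here. WT 3 stood apart among WT-TgN3 mice for pooled endothelial Sele (23.2 CPM) and Selp (57.7 CPM). R182C 5 was lowest among R182C-TgN3 mice for Icam2 in all endothelial cells (141 CPM) and in capillary cells (125 CPM). R182C 4 was highest for arterial Vcam1 (381 CPM), arterial Sele (0.407 CPM) and capillary Ackr1 (0.329 CPM), both of the latter a single UMI, and had the largest venous share (25.8% of gated endothelial cells). WT 5 was highest for capillary Icam1 (161 CPM) and the fenestrated share (13.8%), and lowest for fenestrated Icam2 (156 CPM). WT 1 was highest for fenestrated Vcam1 (30.9 CPM) and WT 4 for arterial Sele (0.185 CPM, 1 UMI). In both genotypes every other mouse had no arterial Sele UMI, so these arterial Sele flags follow from a single UMI.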

How the results depend on the processing

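Of 712 values of the 8 genes between subtypes under the alternatives, 688 kept direction and call, 16 uncalled values moved, 3 reversed, 4 calls were lost and 1 was gained. These counts include Sele, Selp and Ackr1, and Vcam1 in fenestrated cells, whose calls are a description. The reversals were all of Icam1: arterial against capillary, 0.10 with a stricter gate and 0.32 with clusters, and fenestrated against capillary, 0.48 with clusters. None of 727 genotype and 256 age values of the 8 genes was called. The inflamed venule was not found as a cluster, so that alternative gives no value for it. Genes called between inflamed venule and venous cells fell from 1764 to 758 with a stricter gate. The 1 gene called for genotype in the inflamed venule became 2 with no filter, and 0 with DESeq2 size factors, batch as a covariate, the replicate block, the stricter gate, doublets kept or shared barcodes kept, and 0 to 1 with a mouse left out. With the replicate block (equal age and label number), 2 genes were called for genotype in arterial, 1 in venous and 3 in fenestrated cells where none was without it, none of them 1 of the 8, and the numbers do not pair the mice. Genes called for age, 73, became 452 with DESeq2 and 130 with no filter, and 0 to 243 with a mouse left out (0 without R182C 4 or WT 5, 243 without R182C 3). Genes called for genotype by age, 0, became 5 with DESeq2 and 0 to 25 with a mouse left out (25 without WT 4). Subtype shares passing the test, 0, became 0 to 1, with 1 when WT 3 was left out. Of the 8 genes, 5 were detected in the largest share of cells in the inflamed venule after thinning and 8 without thinning, where its deeper cells count in full. Except where stated, the cause was not tested. Depth limits Sele, Selp and Ackr1 most, since their arterial and capillary sums hold 11 UMIs or fewer.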

Other observations

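Some of the 8 genes were also counted in endothelial cells that fell between the subtypes and in the rarer cell types. Icam1 averaged 306 CPM in endothelial cells between the subtypes, 40.7 CPM in B cells and 3.32 CPM in smooth muscle cells. Pecam1 averaged 262 CPM in B cells and 203 CPM in T or NK cells. Vcam1 averaged 116 CPM in choroid plexus cells, which were summed in 5 mice.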
